A study of Homo sapiens with 5 samples.

Results

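Peaks of PRDM11 and of RNA polymerase II were examined at 6 genes that steer B cells through the germinal centre and into plasma cells: BCL6, BACH2 and EZH2 of the germinal centre programme, and IRF4, PRDM1 and XBP1 of the plasma cell programme. A peak belonged to a gene when it lay within 5 kb of the gene's span on the human build hg19. By this rule the 6 gene windows, 581.0 kb in all, held 526 of the 1150695 peaks in the 6 deposited lists. Chromatin came from U2932 cells, an established human lymphoma line, which were not treated. It was precipitated in 1 library each with PRDM11 antibody 1 and PRDM11 antibody 2, both rabbit polyclonal sera that are not sold commercially, and with an antibody against RNA polymerase II. Rabbit IgG and input DNA, 1 library each, served as controls. The authors' lists give peak positions called for each precipitated library against IgG and again against input, with no read counts, so depth is unknown. With no replicate of any library, no difference below has an error between samples and none was tested. Values are from the IgG lists unless input is named. Intervals are exact 95% intervals (Clopper-Pearson for shares, Poisson for peak numbers), which cover counting error only and treat peaks as independent.

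The germinal centre is the structure in which activated B cells mutate their antibody genes and are selected, and plasma cells are the antibody-secreting cells that leave it. BCL6 is the repressor that holds B cells in the germinal centre, and it represses PRDM1, which encodes BLIMP-1, the repressor that ends the B cell programme in plasma cells. PRDM11, the protein precipitated here, belongs to the same PR domain family as BLIMP-1. Lymphomas of activated B cell type, to which U2932 is assigned, are known for high IRF4 and for a block in the step from B cell to plasma cell.

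Promoter sequences of all 6 genes are shown because each gene had a peak of antibody 1 or of RNA polymerase II within 1 kb of its 5′ end. They are RefSeq sequences of build GRCh38.p14, from 250 bases before to 50 bases after the transcription start, written 5′ to 3′ on the gene's strand. Their coordinates are chr3:187745419-187745718 for BCL6, chr6:90296794-90297093 for BACH2, chr7:148884242-148884541 for EZH2, chr6:391502-391801 for IRF4, chr6:106086086-106086385 for PRDM1 and chr22:28800520-28800819 for XBP1. IRF4 and PRDM1 lie on the plus strand and the other genes on the minus strand. Capitals mark every match, on either strand, to the motifs searched.
BCL6: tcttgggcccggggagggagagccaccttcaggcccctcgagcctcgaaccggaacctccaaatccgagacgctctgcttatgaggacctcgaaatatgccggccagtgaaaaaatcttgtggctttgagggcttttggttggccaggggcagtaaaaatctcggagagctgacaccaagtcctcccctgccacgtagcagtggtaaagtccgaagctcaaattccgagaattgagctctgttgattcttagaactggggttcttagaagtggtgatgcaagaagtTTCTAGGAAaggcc
BACH2: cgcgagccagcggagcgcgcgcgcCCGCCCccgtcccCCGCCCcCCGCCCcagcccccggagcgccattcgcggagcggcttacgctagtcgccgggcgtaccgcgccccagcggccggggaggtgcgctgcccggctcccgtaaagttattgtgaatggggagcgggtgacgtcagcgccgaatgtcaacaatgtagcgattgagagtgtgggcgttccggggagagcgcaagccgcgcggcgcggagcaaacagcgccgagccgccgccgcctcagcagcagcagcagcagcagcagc
EZH2: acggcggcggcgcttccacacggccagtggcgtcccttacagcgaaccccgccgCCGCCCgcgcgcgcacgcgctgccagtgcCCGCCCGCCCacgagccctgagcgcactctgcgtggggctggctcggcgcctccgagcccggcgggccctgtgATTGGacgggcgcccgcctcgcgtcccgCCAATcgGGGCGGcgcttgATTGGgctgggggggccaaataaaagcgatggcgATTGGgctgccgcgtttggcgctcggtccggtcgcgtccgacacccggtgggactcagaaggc
IRF4: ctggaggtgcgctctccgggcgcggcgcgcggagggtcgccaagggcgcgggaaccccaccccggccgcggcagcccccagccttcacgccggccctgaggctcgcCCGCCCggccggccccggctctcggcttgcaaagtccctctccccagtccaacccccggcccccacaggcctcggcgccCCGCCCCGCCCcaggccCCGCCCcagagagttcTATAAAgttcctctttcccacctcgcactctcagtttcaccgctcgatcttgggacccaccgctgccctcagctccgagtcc
PRDM1: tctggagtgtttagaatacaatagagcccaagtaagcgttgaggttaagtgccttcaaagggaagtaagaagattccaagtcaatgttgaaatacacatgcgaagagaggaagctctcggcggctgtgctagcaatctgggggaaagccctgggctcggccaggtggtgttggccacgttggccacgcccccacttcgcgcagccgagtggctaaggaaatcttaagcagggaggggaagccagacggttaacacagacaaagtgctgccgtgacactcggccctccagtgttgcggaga
XBP1: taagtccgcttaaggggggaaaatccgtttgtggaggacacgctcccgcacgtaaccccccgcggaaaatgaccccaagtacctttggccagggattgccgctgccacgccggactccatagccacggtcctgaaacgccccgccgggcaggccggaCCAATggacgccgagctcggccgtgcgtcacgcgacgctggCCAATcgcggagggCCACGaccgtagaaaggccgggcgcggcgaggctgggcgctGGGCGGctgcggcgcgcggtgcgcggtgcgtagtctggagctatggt

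The motifs searched were the BCL6 element TTCCTAGAA, the interferon regulatory factor element GAAANNGAA, the PRDM1 element AGNGAAAG, the AP-1 and BACH core TGAGTCA, the TATA box TATAAA, the CCAAT box, the GC box GGGCGG, and the endoplasmic reticulum stress element, in which CCAAT and CCACG stand 9 bases apart. BCL6 had the BCL6 element on the opposite strand, at positions 36 to 44 counted from 0 at the transcription start. Of all 35116 RefSeq promoters of this length, 0.373% held that motif. XBP1, the transcription factor of the secretory and stress response, had the stress element at positions -52 to -34, whose CCAAT also counts as a CCAAT box. It was present in 0.0769% of all promoters. IRF4 had a TATA box at -32 to -27, a motif in 11.5% of promoters. CCAAT boxes, found in 34.6% of promoters, numbered 4 in EZH2 and 2 in XBP1, while GC boxes, found in 45.0%, numbered 4 in EZH2, 4 in IRF4, 3 in BACH2 and 1 in XBP1. In the sequences printed, no member matched the interferon regulatory factor element (8.11% of promoters), the PRDM1 element (7.99%) or the AP-1 core (4.95%), and PRDM1 matched none of the motifs. RefSeq gives 4 of the 6 genes a second promoter, searched in the same way but not printed, since it lies farther from the 5′ end of the span. Those second promoters held the AP-1 core at -77 to -71 in BCL6 and, on the opposite strand, at -42 to -36 in PRDM1, where a GC box also stood at -133 to -128. In XBP1 and EZH2 the second promoters held GC boxes alone. CG pairs numbered 45 in BACH2, 46 in EZH2, 32 in IRF4 and 40 in XBP1, but 12 in BCL6 and 14 in PRDM1, against a median of 14 over all promoters. These matches describe letters in these windows only. The peaks below are on hg19, so they were not placed on these sequences.

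Antibody 1 peaks were concentrated at BCL6. The BCL6 window, 34.3 kb long, held 7 of the 13 antibody 1 peaks of the 6 windows, BACH2 held 3, IRF4 held 2 and EZH2 held 1. PRDM1 and XBP1 had 0. The density was 203.8 peaks per Mb at BCL6 (81.9 to 419.9), 67.3 at IRF4 (8.15 to 243.2), 11.5 at EZH2 (0.291 to 64.1) and 7.89 at BACH2 (1.63 to 23.0), against 4.50 per Mb for the whole list of 13499 peaks. The intervals of BACH2 and EZH2 thus include the density of the whole list, and those of BCL6 and IRF4 lie above it. These densities average over windows of unequal length, and all 3 BACH2 peaks lay within 1 kb of its 5′ end. In the first 5 kb of the span, antibody 1 peaks covered 22.2% at BCL6, 11.8% at BACH2, 3.96% at IRF4 and 0 at EZH2. In the 5 kb upstream, cover was 1.60% at BACH2 and 2.46% at IRF4. The whole list covered 0.118% of the genome. The BACH2 interval thus describes its long window and not its 5′ end. The megabase around IRF4 held 9 antibody 1 peaks, a density inside the IRF4 interval. The megabase around BCL6 held 12, a density below the BCL6 interval. Of the 65 bins of 10 kb that touch the windows, 5 (7.69%) held an antibody 1 peak, against 3.53% of bins over the genome. A list of called peaks says nothing of signal below its threshold, so the 0 at PRDM1 and XBP1 is a count of listed peaks and not a level.

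**Figure D1:**
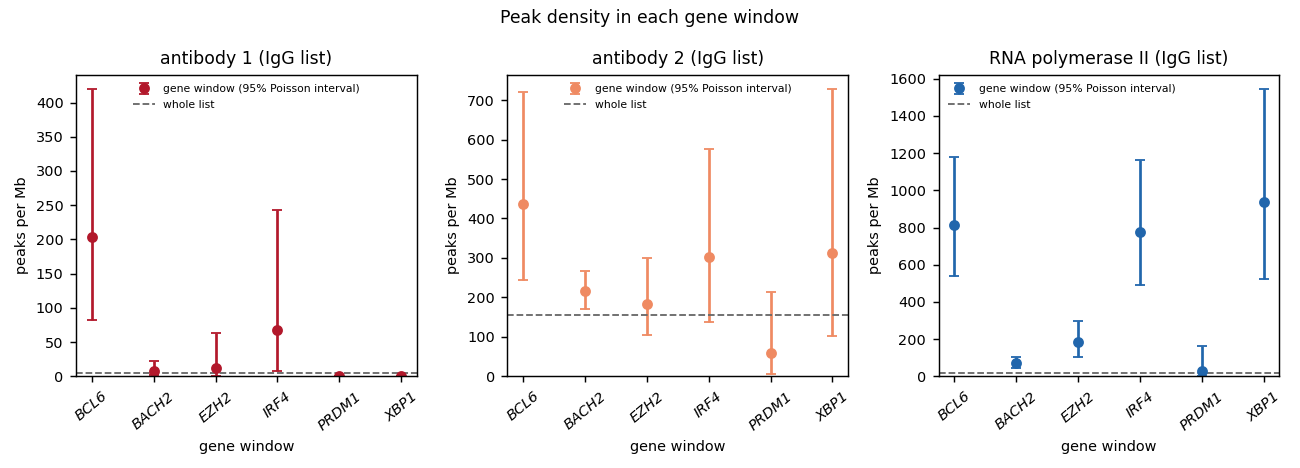
Peaks per Mb in each gene window (points, with exact 95% Poisson intervals where the window held a peak) for antibody 1, antibody 2 and RNA polymerase II in the lists called against IgG, and the density of each whole list (dashed line). BCL6 stands highest for antibody 1 at 203.8 per Mb, and XBP1 stands highest for RNA polymerase II at 936.7 per Mb with 0 antibody 1 peaks.

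All 13 antibody 1 peaks called against IgG were found again, by an overlap of at least 1 bp, in the list called against input, as were 81.3% of the whole list. Their median width was 212 bp, and 1 of the 13 had the list's minimum width of 123 bp. In the whole list the median was 184 bp and 20.4% of peaks had the minimum width. By position, 8 of the 13 lay within 1 kb of a 5′ end: 3 at BACH2, 2 at BCL6, 2 at IRF4 and 1 at EZH2. The matching share of the whole list was not counted, so a preference of these genes for the 5′ end was not tested. Distances below are counted from 0 at the 5′ end of the span, with negative values upstream. Exons and introns were not assigned, since no hg19 annotation was used.

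At BCL6, 6 of the 7 antibody 1 peaks lay inside the span, in its 5′ part. The widest peak of the window, 507 bp at chr3:187462456-187462962, lay at 551 to 1057 and was crossed by 2 antibody 2 peaks. Next to it, nearer the 5′ end, a 210 bp peak stood at 278 to 487. Farther into the gene, a 269 bp peak at 1554 to 1822 overlapped no antibody 2 peak, the nearest being 172 bp away. Peaks of 124 bp at 3985 to 4108 and 291 bp at 6849 to 7139 each met 1 antibody 2 peak, and a 141 bp peak at 7676 to 7816 met none. The seventh peak, 334 bp wide, lay upstream at -4669 to -4336. Each of the 7 lay wholly inside an RNA polymerase II peak. RefSeq on GRCh38 places 2 other RNA genes, LOC100131635 and BCL6-AS1, over the BCL6 model, and peaks at these genes cannot be told apart from peaks at BCL6.

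In the list called against input, BCL6 had 12 antibody 1 peaks, of which 6 were found in the IgG list. The widest input peaks at BCL6 were 870 bp at 242 to 1111 and 591 bp at 1327 to 1917, and each covers ground that holds narrower IgG-list peaks. The megabase around BCL6 held 92 antibody 1 peaks against input but 12 against IgG, a gap wider than in the megabases of the other 5 genes, where the input list had 4 to 25 per Mb and the IgG list 5 to 12. The part of this regional gap in the extra input peaks of BCL6 was not tested.

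BACH2, a repressor that delays the plasma cell fate, had all 3 of its antibody 1 peaks within 1 kb of the 5′ end of a span of 370381 bp. The 301 bp peak at chr6:91006407-91006707 crossed the 5′ end (-80 to 220), shared 292 bp with an antibody 2 peak and 298 bp with an RNA polymerase II peak. A 156 bp peak at 280 to 435 shared 94 bp with the same antibody 2 peak and touched no RNA polymerase II peak, the only such case among the 13. The 212 bp peak at 568 to 779 met RNA polymerase II but no antibody 2 peak. Against input BACH2 had 9 antibody 1 peaks, 2 of them found in the IgG list, and the widest, 525 bp, ran from -89 to 435. A non-coding gene, LOC105377891, lies 396 bp from the BACH2 model on GRCh38, so peaks at its start cannot be assigned to BACH2 alone.

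EZH2, the enzyme of Polycomb repressive complex 2 that methylates histone H3, had 1 antibody 1 peak. It was 234 bp wide, at chr7:148581564-148581797, and lay just upstream of the 5′ end at -356 to -123. The peak sat inside an RNA polymerase II peak, and the nearest antibody 2 peak was 634 bp away. A non-coding gene, LOC124901767, lies 898 bp from the EZH2 model on GRCh38. The side on which it lies was not determined, so the antibody 1 peak cannot be assigned to EZH2 alone. Against input EZH2 had 2 antibody 1 peaks, 1 of them found in the IgG list.

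IRF4, the transcription factor needed for plasma cell formation, had 2 antibody 1 peaks on either side of its 5′ end. The peak at chr6:391347-391469 was 123 bp wide, at -392 to -270, and shared 54 bp with an antibody 2 peak. The other, 198 bp at chr6:391762-391959, began 23 bp into the span and ended 7 bp short of the next antibody 2 peak. Both lay inside 1 RNA polymerase II peak of 4226 bp. The input list had 4 antibody 1 peaks at IRF4, each of which met an antibody 2 peak and an RNA polymerase II peak.

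XBP1 had its antibody 1 peaks only in the list called against input. There were 3, and none of them was found in the IgG list. The widest, 209 bp at chr22:29196410-29196618, crossed the 5′ end from -58 to 150 and shared 89 bp with an antibody 2 peak of the input list. A 203 bp peak lay just inside at 201 to 403, and a 123 bp peak stood upstream at -2603 to -2481. PRDM1 had 0 antibody 1 peaks in either list, and its nearest listed antibody 1 peak stood 86.4 kb outside the window. The RefSeq model of PRDM1 on GRCh38 is 117249 bp long, against the span of 23620 bp used here. Its first promoter entry lies 23603 bp from the 3′ end, so the extra length is upstream. By distance alone, the nearest peak, at -91560 to -91367, falls inside that longer model. The 0 at PRDM1 thus holds for the shorter span only. With the PRDM1 window reaching 100 kb upstream, a setting chosen after seeing the data, the 6 windows together held 15 antibody 1 peaks in place of 13. Windows with an antibody 1 peak then numbered 5 in place of 4. Over all 6 windows the input list held 30 antibody 1 peaks, 11 of which (36.7%) were found in the IgG list, against 19.5% of the whole input list.

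**Figure D2:**
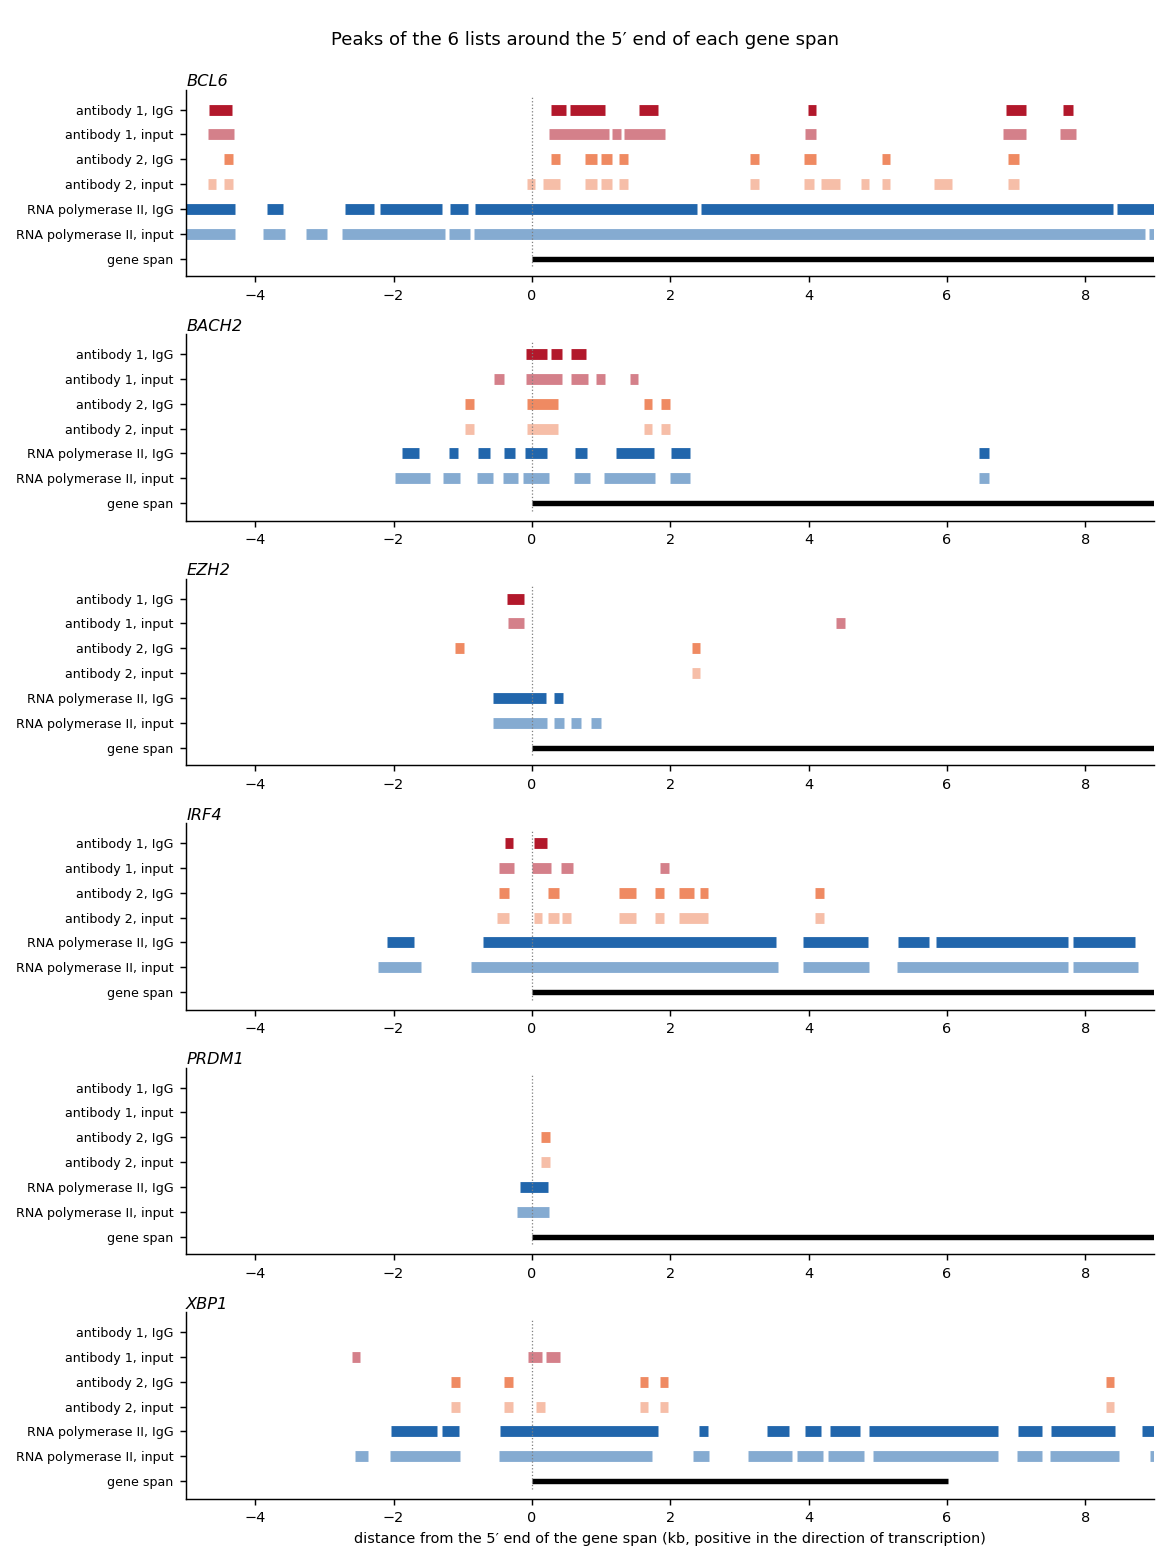
Peaks around the 5′ end of each gene, in kb from the 5′ end with the direction of transcription to the right, for the lists of antibody 1, antibody 2 and RNA polymerase II called against IgG and against input (paler). BACH2, EZH2 and IRF4 have antibody 1 peaks beside the 5′ end, those of BCL6 also reach into the gene, XBP1 has them in the input list alone and PRDM1 in neither.

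Antibody 2 gave many short peaks, most of them at BACH2. The windows held 129 of its 465837 peaks: 82 at BACH2, 16 at EZH2, 15 at BCL6, 9 at IRF4, 5 at XBP1 and 2 at PRDM1. Their density was 436.7 per Mb at BCL6 (244.4 to 720.3), 312.2 at XBP1 (101.4 to 728.7), 303.0 at IRF4 (138.5 to 575.1), 215.6 at BACH2 (171.5 to 267.6), 184.0 at EZH2 (105.1 to 298.7) and 59.5 at PRDM1 (7.20 to 214.9), against 155.2 per Mb for the whole list. The intervals of BCL6 and BACH2 lie above the density of the whole list, and those of the other 4 genes include it. The regions around the 2 genes held 259 antibody 2 peaks per Mb for BCL6 and 194.5 for BACH2. Both values lie inside the interval of the gene, and an excess of either window over its region was not tested. Of the 129 peaks, 98 (76.0%) had the minimum width of 123 bp, against 78.4% of the whole list. A 10 kb bin touching the windows held an antibody 2 peak in 53 of 65 cases (81.5%), against 71.7% of bins over the genome. In the input list, 114 of the 129 (88.4%) were found, against 93.2% of the whole list. Antibody 2 peaks covered more of the first 5 kb of each span than of the rest. The cover was 20.1% against 2.05% at IRF4, 17.6% against 4.03% at BCL6 and 12.4% against 2.91% at BACH2. It was 4.92% against 0 at XBP1, 2.46% against 1.88% at EZH2 and 2.46% against 0.661% at PRDM1. These last genes bear little weight: the rest of the XBP1 span is 1013 bp long. At EZH2 and at PRDM1 the first 5 kb held 1 peak of the minimum width.

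Antibody 2 peaks of 200 bp or wider numbered 9 of 129 (6.98%), against 8.66% of the whole list. The widest, 445 bp at chr6:91006254-91006698, crossed the BACH2 5′ end (-71 to 373) and met 2 antibody 1 peaks. BACH2 had 5 more, of 361, 287, 255, 244 and 238 bp, which lay between 45187 and 352078 into the gene, away from antibody 1 and RNA polymerase II peaks. IRF4 had 2, of 243 bp at 1258 to 1500 and 229 bp at 2120 to 2348, both inside its widest RNA polymerase II peak. BCL6 had 1, of 201 bp, beyond the 3′ end. The 6 antibody 2 peaks that met antibody 1 at BCL6 were narrower, at 123 to 171 bp, and the one at IRF4 was 134 bp wide. At PRDM1, both antibody 2 peaks were 123 bp wide, and the peak at 137 to 259 shared 94 bp with the gene's single RNA polymerase II peak.

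RNA polymerase II covered much of 3 genes and little of the other 3. Its peaks took up 69.7% of the IRF4 window, 61.4% of BCL6 and 52.4% of XBP1, but 5.52% of EZH2, 1.73% of BACH2 and 1.18% of PRDM1, against 0.597% of the genome for the whole list of 50161 peaks. The windows held 110 peaks, of which 28 lay at BCL6, 27 at BACH2, 23 at IRF4, 16 at EZH2, 15 at XBP1 and 1 at PRDM1. A peak of this library was present in 25 of the 65 bins of 10 kb (38.5%), against 7.20% of bins over the genome. Of the 110 peaks, 104 (94.5%) were found in the input list, against 89.4% of the whole list.

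Wide polymerase peaks were frequent in the windows. Peaks of 500 bp or wider numbered 33 of 110 (30.0%), against 18.9% of the whole list, and were 13 at IRF4, 10 at BCL6, 4 at XBP1, 4 at EZH2, 2 at BACH2 and 0 at PRDM1. Those of 2000 bp or wider numbered 4 (3.64%), against 0.550% of the whole list. BCL6 had the widest, 5962 bp at 2445 to 8406, and only 16 peaks of the list were as wide or wider, itself included. A second BCL6 peak of 3216 bp crossed the 5′ end (-829 to 2386), and another of 1392 bp followed at 8456 to 9847. Across gaps of at most 58 bp these 3 made a stretch of 10677 bp, which held 6 of the 7 BCL6 antibody 1 peaks. The other 7 wide BCL6 peaks measured 513 to 1556 bp, and the one of 759 bp at -5056 to -4298 held the upstream antibody 1 peak. Against input, 4 joined peaks at BCL6 formed a stretch of 12605 bp.

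At IRF4, polymerase peaks ran, with gaps, from the 5′ end to beyond the 3′ end. Its widest polymerase peak, 4226 bp at -701 to 3524, held both antibody 1 peaks and 6 antibody 2 peaks. The other 12 wide peaks measured 668 to 1909 bp, and 3 of them lay past the 3′ end, at 308 to 3635 from it. XBP1, a short gene, had a 2287 bp peak across the 5′ end (-466 to 1820) and an 1860 bp peak across the 3′ end, beside peaks of 916 bp past the 3′ end and 655 bp upstream. With 0 antibody 1 peaks of the IgG list at XBP1, neither end peak could meet one. Against input, the polymerase peak across the XBP1 5′ end was 2210 bp wide and met 2 antibody 1 peaks.

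EZH2 had a 759 bp polymerase peak across its 5′ end (-558 to 200), which held the antibody 1 peak. Its other 3 wide peaks, of 513, 818 and 780 bp, lay past the 3′ end, at 883 to 4477 from it. CUL1 lies on that side, 6273 bp from the EZH2 model on GRCh38, and polymerase of the 2 genes cannot be told apart there. At BACH2 the wide peaks were 736 bp, at 21781 to 22516, and 544 bp, at 1221 to 1764. PRDM1 had 1 polymerase peak, 397 bp at chr6:106534029-106534425, across the 5′ end (-166 to 230).

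**Figure D3:**
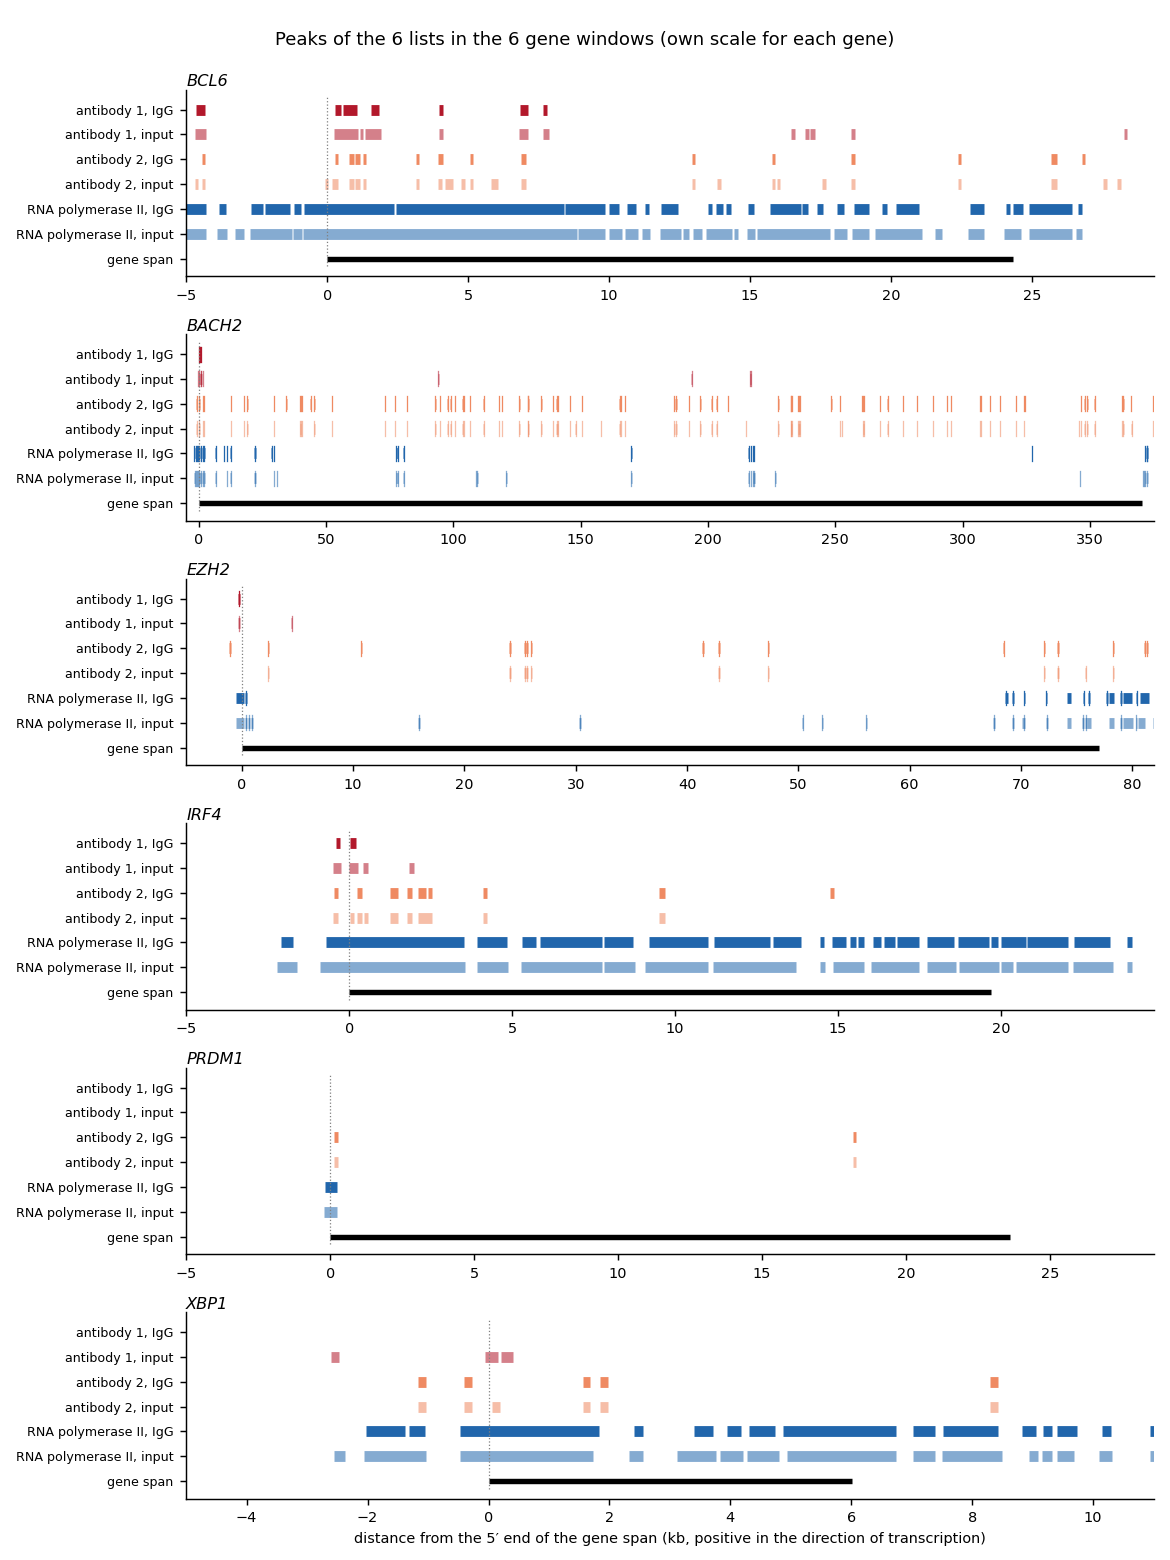
Peaks of antibody 1, antibody 2 and RNA polymerase II, called against IgG and against input (paler), along each gene window, in kb from the 5′ end on a scale of its own, with a black bar for the gene span; the shortest peaks are drawn wider than they are so that they can be seen. BCL6, IRF4 and XBP1 are covered with RNA polymerase II over much of their length, PRDM1 has 1 such peak at its 5′ end, and BACH2 shows scattered short antibody 2 peaks through its span.

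The distribution of polymerase along the genes also differed. In the first 5 kb of the span, cover was 98.8% at BCL6, 89.2% at IRF4, 61.0% at XBP1, 24.5% at BACH2, 6.60% at EZH2 and 4.62% at PRDM1. In the rest of the span it was 79.5% at IRF4 and 55.9% at BCL6, but 1.80% at EZH2, 1.09% at BACH2 and 0 at PRDM1. That remainder at XBP1 is 1013 bp long and was wholly covered. In the 5 kb past the 3′ end, cover was 69.1% at IRF4, 59.0% at XBP1, 52.3% at EZH2, 40.2% at BCL6, 10.6% at BACH2 and 0 at PRDM1. BCL6 also had 66.6% cover in the 5 kb upstream, against 3.32% at PRDM1 to 27.5% at XBP1 for the other 5 genes. RefSeq on GRCh38 places CCDC117 5259 bp from the XBP1 model and RTP2 5686 bp from the BCL6 model. Polymerase in the flank on the side of such a neighbour cannot be assigned to XBP1 or BCL6 alone.

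**Figure D4:**
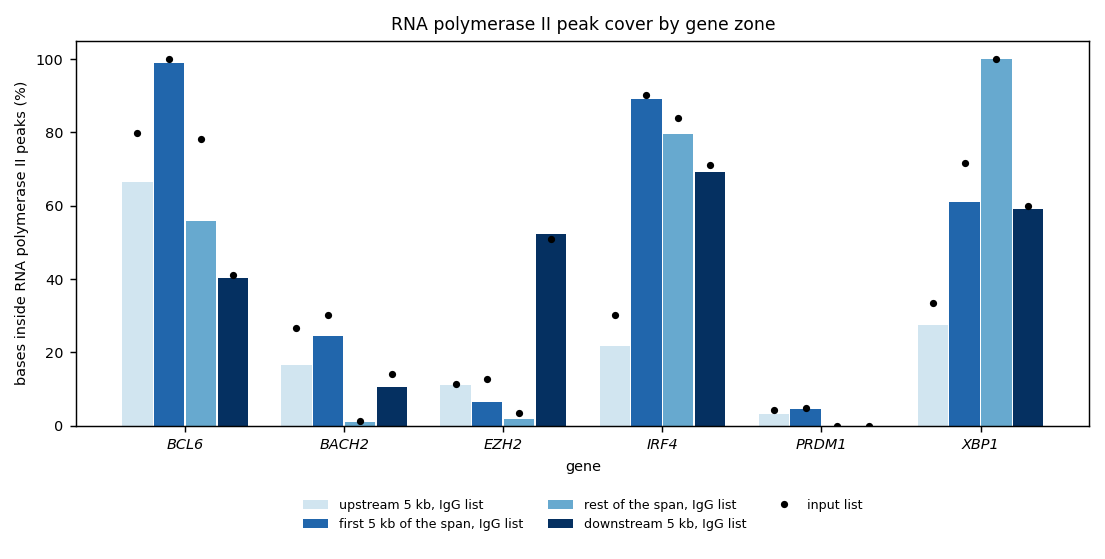
Percent of bases inside RNA polymerase II peaks in 4 zones of each gene window (bars, list called against IgG; black points, list called against input). IRF4, BCL6 and XBP1 carry polymerase beyond the first 5 kb, where XBP1 has 1013 bp left, and PRDM1 has 4.62% in the first 5 kb and 0 past it.

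Antibody 1 peaks in these windows mostly coincided with RNA polymerase II. Of the 13, 12 overlapped an RNA polymerase II peak by at least 1 bp (92.3%, 64.0% to 99.8%), against 55.2% of the whole list. Against input the numbers were 25 of 30 (83.3%, 65.3% to 94.4%) and 44.9% of the whole list. Both intervals lie above the share of their whole list, but the first rests on BCL6, which gave 7 of the 13 peaks and where polymerase covered 61.4% of the window. Without BCL6 the count was 5 of 6 (83.3%, 35.9% to 99.6%), an interval that includes the 55.2% of the whole list. With peaks of 200 bp or wider in both lists it was 7 of 8 (87.5%, 47.3% to 99.7%), which includes the 70.8% of the whole list under the same limit. Peaks of 1 gene share a locus and are no independent draws. In the reverse direction 7 of 110 polymerase peaks met an antibody 1 peak (6.36%, 2.60% to 12.7%), against 14.3% of the whole list.

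The 2 PRDM11 antibodies met at 8 of the 13 antibody 1 peaks (61.5%, 31.6% to 86.1%), against 47.2% of the whole list, which lies inside the interval. By gene these were 5 of 7 at BCL6, 2 of 3 at BACH2, 1 of 2 at IRF4 and 0 of 1 at EZH2. Against input they were 13 of 30 (43.3%, 25.5% to 62.6%), with 34.8% for the whole list, also inside the interval. When peaks under 200 bp were left out of either list, the count in the windows was 1 of 8 (12.5%, 0.316% to 52.7%), against 45.0% of the whole list under the same limit, which again lies inside the interval. Peaks of antibody 1 that met both antibody 2 and polymerase numbered 7 of 13 (53.8%), against 32.6% of the whole list. These 7 include the 5 BCL6 peaks that met antibody 2. No interval was computed for this share, so its difference from the whole list was not tested.

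Antibody 2 met polymerase at 34 of 129 peaks (26.4%, 18.99% to 34.8%), against 3.20% of the whole list, and in the input lists at 42 of 133 (31.6%, 23.8% to 40.2%), against 6.29%. The genes differed widely: 9 of 9 antibody 2 peaks met polymerase at IRF4, 13 of 15 at BCL6, 4 of 5 at XBP1, 1 of 2 at PRDM1, 3 of 16 at EZH2 and 4 of 82 at BACH2. IRF4, BCL6 and XBP1, with the 3 highest shares, are also the genes with the most polymerase cover given above, and the part of that cover in the shares was not tested. Without the BACH2 window the share was 63.8%, and without BCL6 it was 18.4%. Between peaks of 200 bp or wider it was 4 of 9 (44.4%, 13.7% to 78.8%), against 8.96% of the whole list under that limit. Of the 110 polymerase peaks, 21 met an antibody 2 peak (19.1%, 12.2% to 27.7%), and 25.6% of the whole list did.

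**Figure D5:**
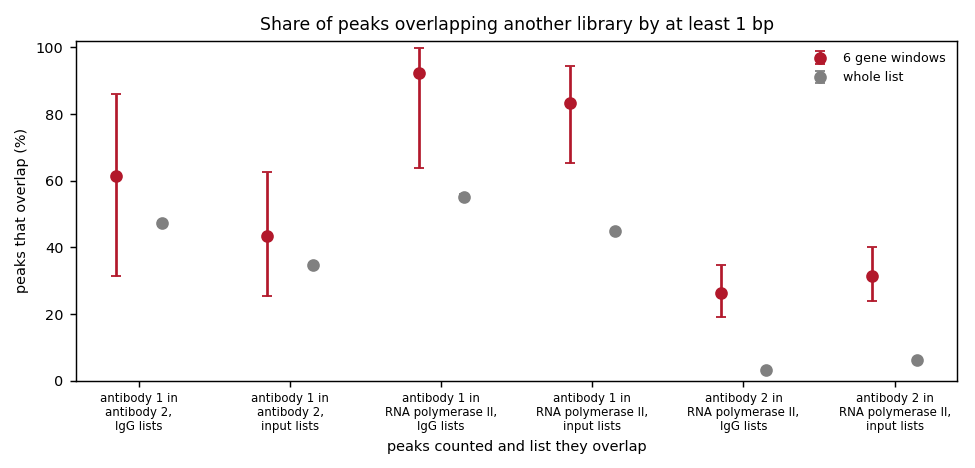
Share of peaks that overlap a peak of another library by at least 1 bp, in the 6 gene windows (with exact 95% binomial intervals) and in the whole list, for the IgG and input lists. Antibody 1 with RNA polymerase II stands at 92.3% in the windows against 55.2% in the whole IgG list, and the interval of antibody 1 with antibody 2 spans the 47.2% of its list.

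Set side by side by programme, the germinal centre genes BCL6, BACH2 and EZH2 had 11 antibody 1 peaks and the plasma cell genes IRF4, PRDM1 and XBP1 had 2. Their windows total 501.7 kb for the germinal centre genes and 79.3 kb for the plasma cell genes, and per Mb the antibody 1 numbers were 21.9 for the germinal centre genes and 25.2 for the plasma cell genes, where they rest on the 2 IRF4 peaks. Against input they were 45.8 per Mb for the germinal centre genes, from 23 peaks, and 88.2 for the plasma cell genes, from 7 peaks. Polymerase peaks numbered 141.5 per Mb at the germinal centre genes and 491.6 at the plasma cell genes. The germinal centre value is weighted by BACH2, whose window is 380.4 kb of that total. By gene the polymerase densities were 815.2 per Mb at BCL6, 184.0 at EZH2 and 71.0 at BACH2. For the plasma cell genes they were 936.7 at XBP1, 774.3 at IRF4 and 29.7 at PRDM1, so the programmes were not cleanly apart. Antibody 2 peaks numbered 225.2 per Mb at the germinal centre genes and 201.7 at the plasma cell genes. Within each programme the genes were unlike. BCL6 stood apart from BACH2 and EZH2 in antibody 1 density over the whole window and in polymerase cover. PRDM1 stood apart from IRF4 and XBP1 in polymerase cover.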

How the data were processed

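Chromatin immunoprecipitation was sequenced for 5 libraries, grouped by the antibody in their labels. Per the submitters' processing notes, the build was hg19 and the tools were MACS2 2.0.9, Bowtie 0.12.7 and SAMtools, with no order or settings. The authors' deposited lists hold 3 columns, for the chromosome, start and end of each peak, with no score or count. A q threshold of 0.1 and the control stand in the list names. Starts were counted from 0 in the deposited lists and are printed counted from 1. A low threshold, or a control thin in a region, changes both peak numbers and overlaps, and reads without molecular identifiers are not independent molecules.

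Members and lists were chosen with earlier results of these data known. Every gene was described; given singly were all antibody 1 peaks, polymerase peaks of 500 bp or wider or else the widest, antibody 2 peaks of 200 bp or wider or on an antibody 1 peak, and the widest antibody 1 input peak where IgG gave none. Strand, neighbours and promoters came from RefSeq GRCh38.p14, in which 6 of 6 members matched; no coordinates were converted. The first promoter entry of each gene lay, in distance to the gene's 3′ end, within 257 bp of the span length. For density, genome length was 3002 Mb, from the positions the lists reach. Python 3.11.15 was used with SciPy 1.17.1, pandas 2.3.3, matplotlib 3.10.9 and NumPy 2.4.6. Overlap code was tested on simulated peaks and gave the same count as bedtools 2.31.1. Other genes of the pathway were not analysed here, since their hg19 spans were not at hand.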

Additional observations from a re-analysis of the deposited data

How the results depend on the processing

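Of 55 values under other settings, 47 stayed within 1.5 times the reported count or within the interval of the reported share. These included windows with no flank or 10 kb flanks, peaks found against both controls, overlaps of at least 50% of the peak, and an added window reaching 100 kb upstream of PRDM1. Some of the 47 could not move. All 13 antibody 1 peaks were found against both controls, and a limit of 200 bp removes no peak of 500 bp or wider. The rule for shares is also loose, as the interval of antibody 1 with antibody 2 runs from 31.6% to 86.1%. The other 8 of the 55 values follow. The lists called against input gave 30 antibody 1 peaks in place of 13. With peaks of 200 bp or wider alone, the windows held 8 antibody 1 peaks, 9 antibody 2 peaks in place of 129 and 71 polymerase peaks in place of 110. Under the same limit antibody 1 met antibody 2 at 12.5% of peaks, and antibody 2 met polymerase at 44.4%. Leaving out a window, chosen after seeing the data, put the share of antibody 2 peaks meeting polymerase at 18.4% without BCL6 and 63.8% without BACH2. The share of antibody 1 peaks meeting polymerase moved little, but its interval took in the share of the whole list without BCL6 and under the width limit. Fewer peaks enter under the width limit; the cause of the other moves was not tested. A stricter threshold was not run, as the lists hold no score. No paired analysis was possible because each antibody has 1 library. Without read counts, depth could not be weighed.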

Other observations

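Outside the windows, the nearest antibody 1 peak to IRF4 was wide: 1253 bp at chr6:377768-379020, 7.72 kb beyond the upstream edge of the window and -13971 to -12719 from the IRF4 5′ end. Only 80 of the 13499 antibody 1 peaks were as wide or wider, itself included. It met 2 antibody 2 peaks and 3 RNA polymerase II peaks. The peak was singled out after its values were seen. For the other genes the nearest outside antibody 1 peak stood 39.1 kb from the BCL6 window, 74.7 kb from BACH2, 24.8 kb from EZH2 and 16.6 kb from XBP1, and was 123 to 289 bp wide.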
